A study of Homo sapiens with 5 samples.

Results

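The genes of cytochrome b5 and its reductases were followed across 5 cultures of D54, an established human glioma cell line. The 6 members, CYB5A, CYB5B, CYB5R1, CYB5R2, CYB5R3 and CYB5R4, were taken by gene symbol, and each had exactly 1 row among the 33297 rows of the array table. They belong to 18417 genes with a row of their own. The family was chosen by the signal of CYB5A over these 5 cultures, high in some and low in others, so the levels of CYB5A are described here without a test. The other 5 genes were followed as its possible companions.

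RNA came from 2 cultures that carried a control shRNA (control 1 and control 2, 2 independent clones per the series' design text) and from 3 cultures in which TIP-1 was silenced, each with a different shRNA (shRNA 1, shRNA 2 and shRNA 3). All 5 were D54 cells seeded after trypsin treatment and grown overnight, and each gave 1 Affymetrix array with no technical replicate. TIP-1 is a small PDZ domain protein encoded by TAX1BP3. The controls differed in clone and culture, and the TIP-1 shRNA arrays in shRNA sequence and culture, so within a group these cannot be told apart. The vector and the selection of the cells are not stated in the labels.

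Cytochrome b5 is a small heme protein held in a membrane by a tail at its end. It takes electrons from NADH through a flavoprotein, cytochrome b5 reductase, and passes them to enzymes such as the fatty acid desaturases, sterol oxidases and some cytochrome P450 enzymes. CYB5A encodes the form of the endoplasmic reticulum and CYB5B that of the outer mitochondrial membrane. CYB5R3 encodes the main reductase, whose loss causes hereditary methemoglobinemia, and CYB5R4 encodes a protein that joins a b5 domain and a reductase domain in one chain. CYB5R1 and CYB5R2 encode related reductases.

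The 250 bases before the transcription start are shown for the gene that differed most between cultures, for its paralog and for its main reductase. The sequences are those of RefSeq on GRCh38.p14, 5′ to 3′ on the strand of the gene, and 5 of the 6 members had an entry. Capitals mark 3 motifs searched on both strands: the GC box GGGCGG, the CCAAT box CCAAT and the TATA box TATAAA. The stretches lie at chr18:74291964-74292213 on the minus strand (CYB5A), chr16:69424369-69424618 on the plus strand (CYB5B) and chr22:42649393-42649642 on the minus strand (CYB5R3, the outermost of its 3 RefSeq starts).
CYB5A: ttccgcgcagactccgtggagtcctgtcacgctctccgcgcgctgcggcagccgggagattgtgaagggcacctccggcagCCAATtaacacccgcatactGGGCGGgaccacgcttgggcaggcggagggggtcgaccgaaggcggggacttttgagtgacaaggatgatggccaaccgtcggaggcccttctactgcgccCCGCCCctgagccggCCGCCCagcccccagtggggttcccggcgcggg
CYB5B: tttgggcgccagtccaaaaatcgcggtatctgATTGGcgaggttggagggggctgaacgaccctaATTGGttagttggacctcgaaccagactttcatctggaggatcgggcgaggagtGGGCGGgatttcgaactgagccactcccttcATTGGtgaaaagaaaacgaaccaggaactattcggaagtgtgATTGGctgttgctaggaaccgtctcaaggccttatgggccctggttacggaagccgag
CYB5R3: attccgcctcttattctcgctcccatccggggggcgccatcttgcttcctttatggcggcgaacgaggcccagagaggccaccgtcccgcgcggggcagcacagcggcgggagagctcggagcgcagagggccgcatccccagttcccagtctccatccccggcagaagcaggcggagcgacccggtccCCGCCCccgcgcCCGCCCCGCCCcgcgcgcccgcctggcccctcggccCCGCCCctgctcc

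The CYB5A stretch holds 26 CpG dinucleotides and is 69.6% G and C, the CYB5B stretch holds 15 and is 53.6%, and the CYB5R3 stretch holds 31 and is 75.2%. Over all 35116 RefSeq stretches of this length the median was 11 CpG dinucleotides. The CYB5A stretch has 3 GC boxes and 1 CCAAT box, the CYB5B stretch 1 GC box and 4 CCAAT boxes, and the CYB5R3 stretch 4 GC boxes and 0 CCAAT boxes. None of these 3 stretches holds the TATA box letters. The stretches before the other CYB5R3 starts, not shown, hold 2 and 8 CpG dinucleotides and no match to any of the 3 motifs. A GC box occurs in 42.6% of all stretches, a CCAAT box in 32.0% and a TATA box in 10.7%. These are matches of letters in the reference, and neither binding nor methylation was measured in these cultures.

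The array values are log2 signals, so a step of 1 is a doubling. Array medians lay between 7.88 and 7.98. The row of the silenced gene TAX1BP3, which it shares with a read-through transcript, read 12.05 and 12.10 in controls 1 and 2 and 9.81, 9.61 and 9.55 in shRNAs 1, 2 and 3, so each TIP-1 shRNA array matched its label. Of the glioma and astrocyte markers, VIM (13.84 to 14.02) and CD44 (13.73 to 13.80) were bright on all 5 arrays. GFAP read 7.86 to 8.14 and NES 7.78 to 8.06, both close to the array medians. S100B, SOX2, OLIG2, AQP4, SLC1A3 and FABP7 lay below the median of every array, so the defining astrocyte markers were dim in these cells. Without a detection call in the table, low signal is not taken as absence of a transcript.

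CYB5A took 2 widely separated levels, and the levels did not follow the silencing of TIP-1. Its log2 signal was 6.07 in control 1 and 9.73 in control 2. With TIP-1 silenced, shRNA 1 gave 6.04, shRNA 2 gave 6.00 and shRNA 3 gave 10.63. Thus 1 control and 2 TIP-1 shRNA cultures were low, and 1 culture of each group was high. The 3 low arrays lay within 0.08 of each other, while control 2 exceeded control 1 by 3.65, a 12.6-fold difference within the control group. The 2 high arrays were themselves 0.90 apart (1.87-fold), with shRNA 3 above control 2. From the lowest to the highest array the signal changed 24.8-fold. This range of 4.63 was the widest among all 33297 rows, where the median range was 0.31 and the next widest was 4.19.

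The low arrays placed CYB5A below the lower quartile of each array, at the 19.8th percentile of all rows in control 1, the 19.6th in shRNA 1 and the 19.4th in shRNA 2. In control 2 and shRNA 3 it stood at the 74.5th and 83.5th percentile. Rows differ in how their probes respond, so these percentiles show where the signal lay on the array and not the amount of transcript. In bulk RNA, fewer cells with the transcript and less transcript per cell cannot be told apart.

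**Figure D1:**
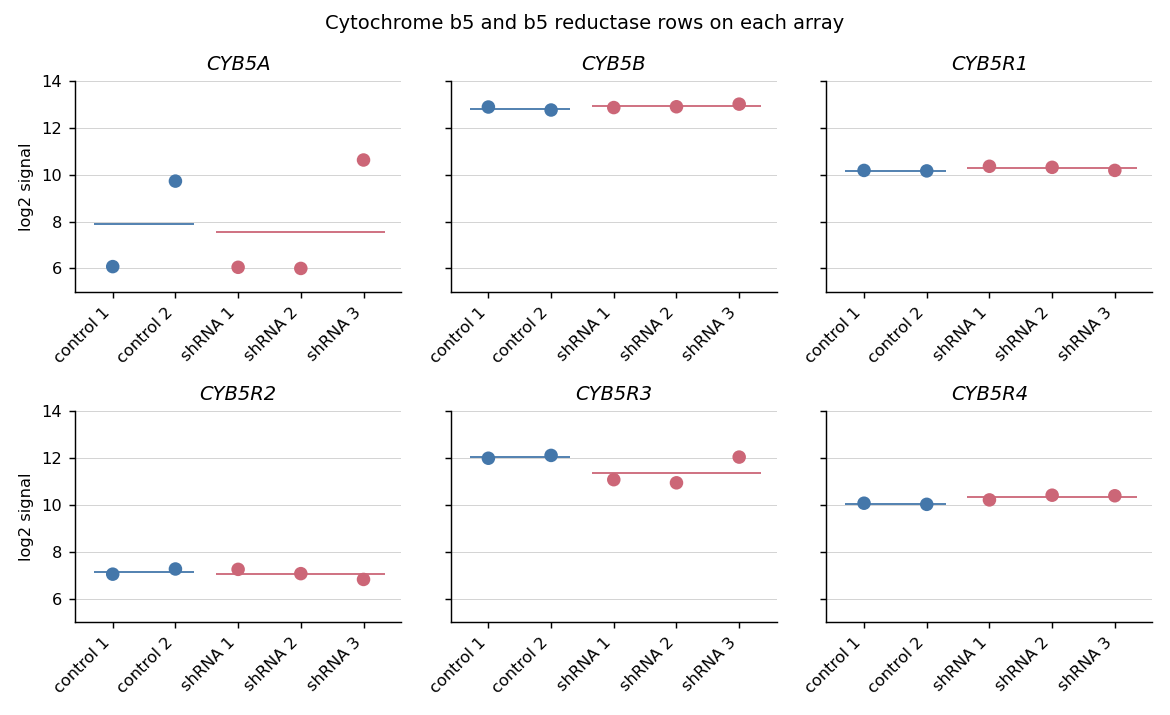
Log2 signal (vertical axis) of the 6 member rows on each of the 5 arrays (horizontal axis), with control shRNA in blue and TIP-1 shRNA in red; horizontal lines are group means. CYB5A is near 6 in control 1, shRNA 1 and shRNA 2 and at 9.73 and 10.63 in control 2 and shRNA 3, CYB5R3 is lower in shRNAs 1 and 2 alone, and the other 4 genes each stay within 0.45 log2 units.

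Each group held both levels of CYB5A. The controls averaged 7.90 ± 2.58 (SD, n = 2) and the TIP-1 shRNA cultures 7.56 ± 2.66 (SD, n = 3), so the spread inside either group was several times the difference of -0.34. The sign of that difference depended on single arrays. It was -2.17 without control 1 and 1.48 without control 2. It was 0.41 without shRNA 1, 0.44 without shRNA 2 and -1.88 without shRNA 3.

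The step in CYB5A was compared with the largest step in every other row, taken as the widest gap between neighbouring values when the 5 arrays are put in order. The gap of CYB5A was 3.65, between control 1 and control 2. The next largest gap of any row was 3.36, the median was 0.16, and the 99th percentile was 0.81. A gap of at least 2 log2 units occurred in 15 rows, 0.0450% of all, and a difference of that size between the 2 controls in 12 rows, 0.0360%. Since CYB5A was picked for this step, its place is a description.

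**Figure D2:**
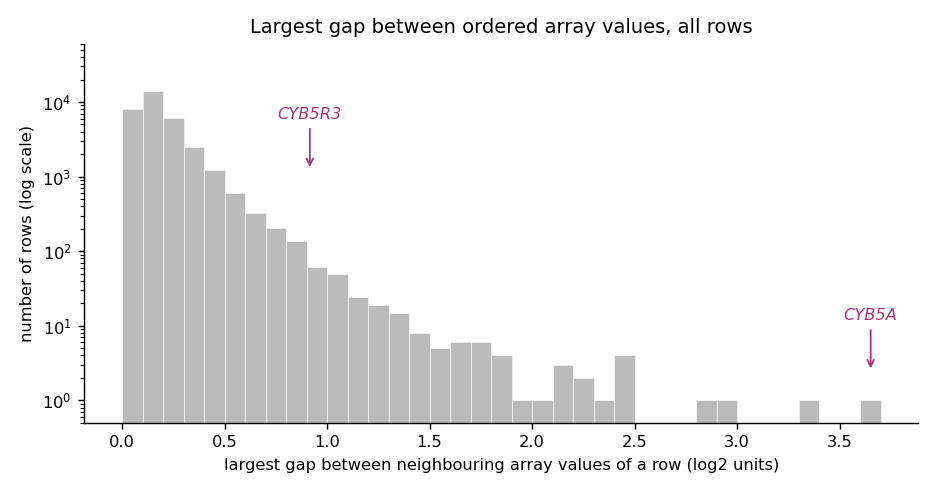
Number of rows (vertical axis, log scale) by the largest gap between neighbouring array values (horizontal axis, log2 units, bins of 0.1) for all 33297 rows. CYB5A stands at the far right with 3.65, and CYB5R3, at 0.92, lies beyond the 99th percentile of 0.81.

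The mitochondrial paralog CYB5B did not follow CYB5A. Its log2 signal was 12.89 and 12.76 in controls 1 and 2 and 12.87, 12.90 and 13.01 in shRNAs 1, 2 and 3. All 5 values lay within 0.25, and control 2, where CYB5A was high, gave the lowest of them while shRNA 3 gave the highest. The groups overlapped, and the difference of TIP-1 shRNA minus control was 0.10 (SE 0.09, 95% interval -0.12 to 0.33, limma adjusted p = 0.791).

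CYB5R3, the main reductase, had the second widest spread in the family, but in another pattern. Its log2 signal was 11.99 and 12.11 in controls 1 and 2, 11.08 in shRNA 1, 10.94 in shRNA 2 and 12.04 in shRNA 3. Both controls and shRNA 3 lay within 0.12 of each other, and shRNAs 1 and 2 lay 0.98 and 1.11 below the control mean, about halved in signal. The largest gap of CYB5R3, 0.92, was reached or passed by 205 rows, its own included. Control 1 separated the 2 genes: CYB5A was low there, as in shRNAs 1 and 2, while CYB5R3 was as high as in control 2 and shRNA 3. In the other 4 arrays, CYB5R3 was high where CYB5A was high and low where it was low.

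Over the whole group the difference of CYB5R3 was -0.70 (SE 0.32, 95% interval -1.48 to 0.09), which did not pass the test (limma adjusted p = 0.707), and shRNA 3 fell between the controls. Without shRNA 3, the TIP-1 shRNA array that read like the controls, the difference was -1.04 (95% interval -1.29 to -0.80). Its limma adjusted p of 0.121 did not pass the threshold of 0.05. Without any other single array the difference was -0.76 to -0.49, and each of those intervals spanned 0.

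CYB5R4, the fused b5 and reductase protein, differed in the same direction in all 3 TIP-1 shRNA arrays. It read 10.07 and 10.02 in controls 1 and 2 and 10.21, 10.41 and 10.39 in shRNAs 1, 2 and 3. All 3 TIP-1 shRNA arrays lay above both controls, by a mean of 0.29 (SE 0.10, 95% interval 0.06 to 0.53, 1.22-fold), but the limma adjusted p over all rows was 0.707. The interval spanned 0 without control 1 (-0.02 to 0.65), without control 2 (-0.07 to 0.60) and without shRNA 2 (-0.04 to 0.55), and with the replicate number as a block (-0.02 to 0.55). Its high and low arrays did not match those of CYB5A, since shRNA 2 was its highest and control 2 its lowest.

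CYB5R1 varied least, from 10.16 to 10.36. It read 10.18 and 10.16 in controls 1 and 2 and 10.36, 10.31 and 10.18 in shRNAs 1, 2 and 3. shRNA 3 exceeded control 1 by less than 0.01, so the groups barely separated, and the difference was 0.11 (95% interval -0.11 to 0.33, limma adjusted p = 0.766).

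CYB5R2 was dim on every array, below the array median throughout. It read 7.04 and 7.26 in controls 1 and 2 and 7.25, 7.06 and 6.82 in shRNAs 1, 2 and 3, with overlapping groups. Its lowest value fell in shRNA 3, where CYB5A was highest. The difference was -0.11 (95% interval -0.47 to 0.25, limma adjusted p = 0.86), and it came to 0.00 without shRNA 3 or without control 2.

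Of these 5 partner and paralog rows, 0 passed limma's test at an adjusted p under 0.05, against 1 of 33297 rows in all (0.00300%), which was TAX1BP3. At an unadjusted p under 0.05 there was 1 of the 5, CYB5R4, against 6.95% of all rows. All 3 TIP-1 shRNA arrays lay above both controls in 2 of the 5, CYB5R1 and CYB5R4, against 11.6% of all rows, and below both in 0 of the 5, against 14.5%. None of the 5 had a gap of 2 log2 units. The p-values measure the spread between 2 clones and between 3 shRNA cultures, and 2 arrays against 3 allow an exact permutation p no lower than 0.1.

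**Figure D3:**
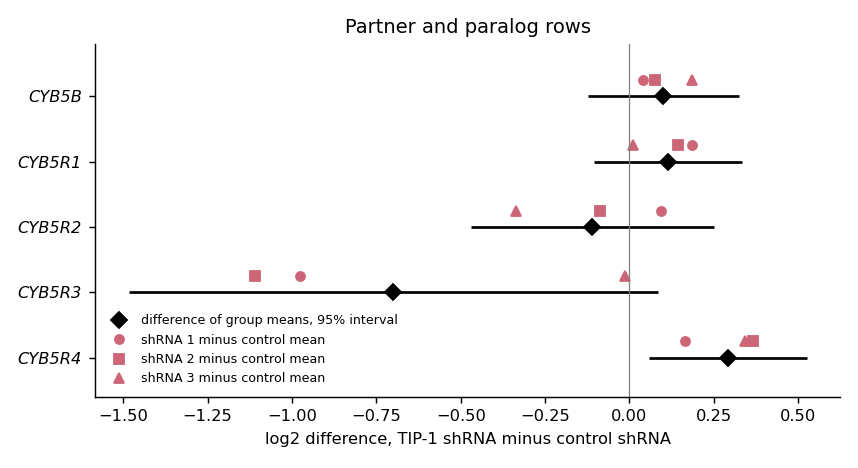
Log2 difference of TIP-1 shRNA minus control shRNA (horizontal axis) for the 5 partner and paralog genes; black diamonds and lines are limma differences with 95% intervals (2 control and 3 TIP-1 shRNA arrays), and red symbols are single shRNA arrays minus the control mean. For CYB5R3, shRNAs 1 and 2 sit at -0.98 and -1.11 and shRNA 3 at -0.01, and with all 5 arrays the interval of CYB5R4 lies above 0, though not without control 1, control 2 or shRNA 2.

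Rows that moved most like CYB5A were found by the distance between their 5 array values and those of CYB5A, each centred on its own mean, over 19459 other rows with 1 gene symbol. The nearest was PCDHB5, a clustered protocadherin, at a distance of 1.36. It read 6.26 in control 1 and 9.44 in control 2, and 6.21, 6.16 and 9.23 in shRNAs 1, 2 and 3, so the same 3 arrays were low and the same 2 high. The next were CDA, cytidine deaminase (distance 1.70), TGM2, tissue transglutaminase (1.86), ANXA3, an annexin (2.24), and ALDH7A1, an aldehyde dehydrogenase (2.51).

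CDA read 8.26 and 11.44 in controls 1 and 2 and 8.71, 8.54 and 11.19 in shRNAs 1, 2 and 3. For TGM2 controls 1 and 2 were at 8.92 and 11.08, and shRNAs 1, 2 and 3 at 8.41, 8.42 and 11.19. In all 5 of these genes control 2 and shRNA 3 were the 2 highest arrays. ANXA3 had control 1 at 8.79, between its low arrays (6.99 and 6.87 in shRNAs 1 and 2) and its high ones (10.14 in control 2 and 10.32 in shRNA 3). The likeness rests on 5 arrays and was sought among all rows.

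The rows nearest to the mirror image of CYB5A were SUCNR1, the succinate receptor (distance 2.19), KCNAB1, a potassium channel beta subunit (2.72), CD24 (2.74), AKR1C2, an aldo-keto reductase (2.88), and TIMP3, a metalloprotease inhibitor (2.95). SUCNR1 read 10.98 and 9.32 in controls 1 and 2 and 10.94, 11.29 and 8.52 in shRNAs 1, 2 and 3, low where CYB5A was high.

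For CYB5R3, whose likeness was examined after its values were seen, the nearest rows were NAV3 (distance 0.20), TMEM255A (0.21), the receptor ROR1 (0.21), DOCK10 (0.27) and AFF3 (0.28). ROR1 read 10.40 and 10.55 in controls 1 and 2 and 9.35, 9.24 and 10.21 in shRNAs 1, 2 and 3. None of the 5 rows nearest to CYB5R3 was among the 5 nearest to CYB5A.

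**Figure D4:**
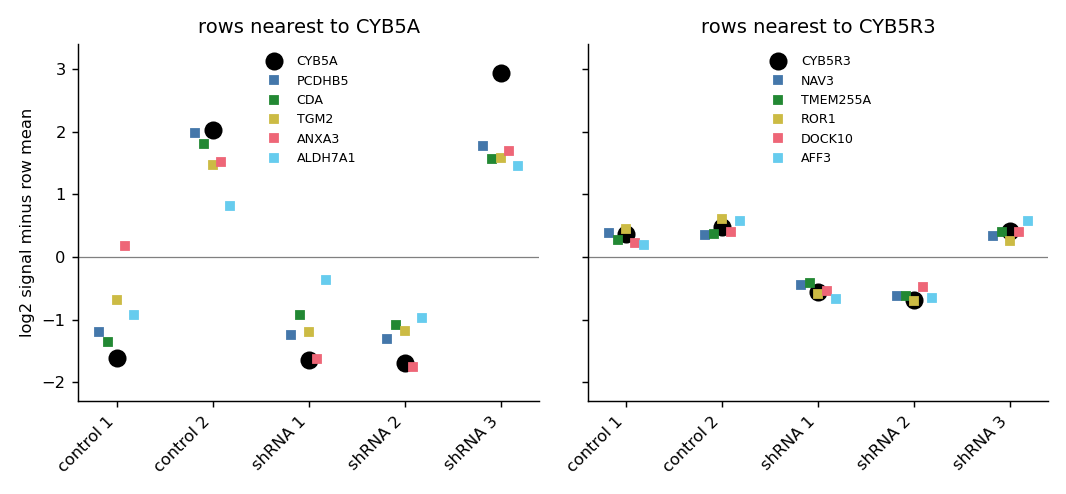
Log2 signal minus the row mean (vertical axis) on each array for CYB5A and its 5 nearest rows (left) and for CYB5R3 and its 5 nearest rows (right). On the left control 2 and shRNA 3 are above 0 in every row; on the right shRNAs 1 and 2 are below 0 and the other 3 arrays above.

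The genes beside CYB5A on chromosome 18 did not share its step. In the RefSeq gene order the 4 nearest measured genes on one side were TIMM21, FBXO15, NETO1 and CBLN2, and on the other DIPK1C, CNDP2, CNDP1 and ZNF407-AS1. Their ranges over the 5 arrays lay between 0.16 (CNDP1) and 0.35 (TIMM21), against 4.63 for CYB5A. The nearest on either side were TIMM21, a mitochondrial import factor, and DIPK1C. TIMM21 read 8.59 and 8.66 in controls 1 and 2 and 8.84, 8.94 and 8.73 in shRNAs 1, 2 and 3. DIPK1C gave 6.83 and 6.92 in controls 1 and 2, against 6.71, 6.84 and 6.66 in shRNAs 1, 2 and 3. None of the 8 rows passed limma's test (adjusted p from 0.707 to 0.961). CNDP2, a dipeptidase, was the bright neighbour, and its values of 9.63 and 9.61 in the controls and 9.72, 9.79 and 9.96 with the shRNAs gave a difference of 0.21 (95% interval spanning 0).

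The genes beside CYB5R3 on chromosome 22 were examined after its values were seen. The 9 rows of the 8 nearest measured genes had ranges from 0.03 (ATP5MGL) to 0.47 (ARFGAP3), against 1.17 for CYB5R3. POLDIP3 read 10.44 and 10.54 in controls 1 and 2 and 10.65, 10.63 and 10.62 in shRNAs 1, 2 and 3, with shRNAs 1 and 2 not below the controls. PACSIN2 also had every TIP-1 shRNA array above both controls. The brighter row of RRP7BP had every TIP-1 shRNA array below both. It read 11.59 and 11.67 in controls 1 and 2 and 11.56, 11.51 and 11.33 in shRNAs 1, 2 and 3 (limma adjusted p = 0.73).

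Enzymes known to take electrons from cytochrome b5, or to be stimulated by it, were measured for 13 of 13 listed genes. None passed in either direction, and their median difference was 0.08 against -0.01 over all rows. Single arrays moved that median, to 0.03 without control 1 and 0.17 without shRNA 1. The largest difference was that of MSMO1, a sterol oxidase (0.46, SE 0.13, limma adjusted p = 0.707). MSMO1 read 10.85 and 10.62 in controls 1 and 2 and 11.05, 11.38 and 11.16 in shRNAs 1, 2 and 3. SC5D, the sterol desaturase, had all 3 TIP-1 shRNA arrays above both controls as well (difference 0.18), which made 2 of the 13 genes, against 11.6% of all rows. SC5D was followed by FAXDC2, with a difference of 0.22. Neither passed.

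SCD, the main stearoyl desaturase, read 12.21 and 11.68 in controls 1 and 2 and 11.88, 12.14 and 12.18 in shRNAs 1, 2 and 3, and CYP51A1, a sterol demethylase, stayed between 10.05 and 10.22. The mitochondrial enzyme MTARC2, which receives electrons through CYB5B and CYB5R3, read 6.86 in control 1, 7.99 in control 2 and 7.78, 7.70 and 7.53 in shRNAs 1, 2 and 3, so control 1 alone was low. Its relative MTARC1 read 6.69 to 7.11. No acceptor had a gap of 2 log2 units, and the widest range was the 1.14 of MTARC2. By list median, control 2 (7.99) and shRNA 3 (8.19), where CYB5A was high, were the highest arrays. By list mean the highest were shRNA 2 (8.69) and shRNA 3 (8.67).

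Proteins with a b5-like domain, and a reductase-like relative, were measured for 11 of 12 listed genes, and none passed (median difference 0.03, lowest -0.17, highest 0.13). The median was -0.06 without shRNA 3 and 0.06 without shRNA 1. By list mean, control 2 (9.98) and shRNA 3 (10.07), where CYB5A was high, were the highest arrays. Control 1, shRNA 1 and shRNA 2 had means of 9.94, 9.93 and 9.93. CYB5D1 (-0.17), CYB5RL (0.13) and FADS3 (-0.11) had the smallest unadjusted p. The front-end desaturases, which carry a b5 domain of their own, read 12.30 to 12.44 (FADS1) and 11.54 to 12.14 (FADS2). FADS2 was highest in shRNA 3, at 12.14, against 11.79 and 11.70 in controls 1 and 2 and 11.54 and 11.64 in shRNAs 1 and 2.

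The P450 system was measured for 10 of 10 listed genes, with a median difference of 0.05 and none past the threshold. The median was -0.01 without control 1 and -0.04 without shRNA 3. By list mean, control 2 (8.31) and shRNA 3 (8.44), where CYB5A was high, were the highest arrays. Control 1, shRNA 1 and shRNA 2 had means of 8.28, 8.25 and 8.24. A link of these lists to CYB5A was not tested. POR, the reductase that feeds microsomal P450 enzymes from NADPH, read 10.67 and 10.89 in controls 1 and 2 and 10.81, 10.79 and 10.87 in shRNAs 1, 2 and 3. CYP2S1 had the smallest unadjusted p (difference 0.22, limma adjusted p = 0.707), followed by CYP26B1 (-0.11) and CYP1B1 (-0.24). CYP1B1 read 7.01 and 6.75 in the controls, 6.49 and 6.40 in shRNAs 1 and 2 and 7.02 in shRNA 3.

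Enzymes that make or break down heme, the cofactor of cytochrome b5, were measured for 11 of 12 listed genes, and none passed (median difference 0.05, but 0.0046 without shRNA 3, 0.08 without shRNA 1 and 0.08 without shRNA 2). BLVRA (0.19), HMOX2 (0.10) and PPOX (0.09) had the smallest unadjusted p. ALAS1, the first enzyme of heme synthesis, stayed between 10.51 and 10.65. HMOX1, the inducible heme oxygenase, had the widest range of the list at 1.48 and is named for that after its values were seen. It read 11.46 and 11.52 in controls 1 and 2, 12.35 and 12.38 in shRNAs 1 and 2 and 10.90 in shRNA 3. It was thus high in the 2 arrays where CYB5R3 was low.

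Cytochrome b5 is inserted into membranes after its synthesis, by its tail. Of the genes of that insertion, 12 of 13 listed were measured, and all 12 had differences above 0, from 0.02 to 0.24 with a median of 0.05, though none passed. Over all rows 46.3% of differences were above 0. GET4 (0.24), EMC3 (0.14) and EMC4 (0.12) had the smallest unadjusted p and were named for it. All 3 TIP-1 shRNA arrays lay above both controls in those 3 of the 12 genes, against 11.6% of all rows. The median difference of this list was -0.02 without control 1, 0.17 without control 2, 0.10 without shRNA 1 and 0.08 without shRNA 3.

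**Figure D5:**
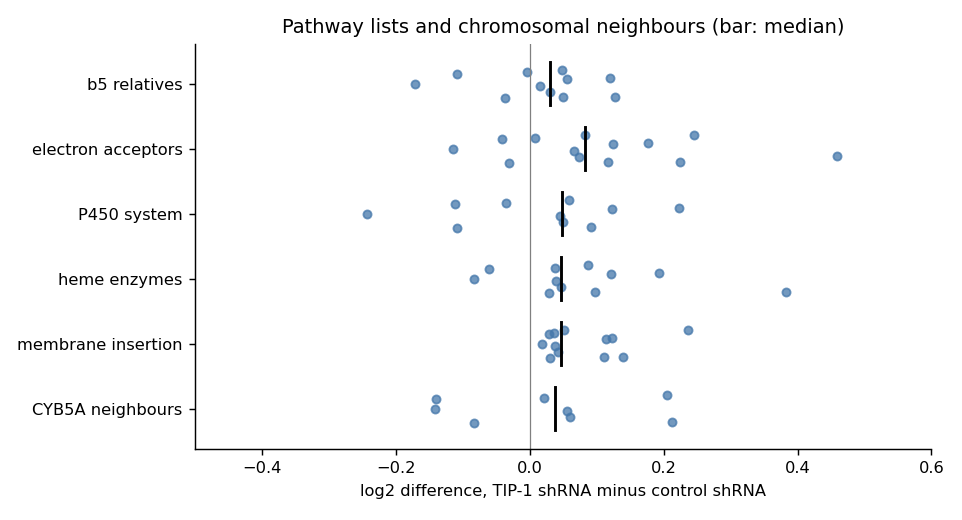
Log2 difference of TIP-1 shRNA minus control shRNA (horizontal axis) for each measured gene of 5 pathway lists and for the 8 neighbours of CYB5A; black bars are medians. All points lie between -0.24 (CYP1B1) and 0.46 (MSMO1), and none passed limma's test.

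Markers of other cell types were read on the same arrays. Endothelial markers (5 of 5 measured) had mean log2 signals of 6.79 and 6.83 in the controls and 6.71 to 6.73 with TIP-1 shRNA. In 3 of these 5, VWF, KDR and TEK, all 3 TIP-1 shRNA arrays lay below both controls, against 14.5% of all rows. None of the 5 passed (smallest limma adjusted p 0.719). Red cell precursor markers (3 of 5 measured) had means of 6.84 and 6.98 in the controls and 6.75 to 6.89 with TIP-1 shRNA. Oligodendrocyte markers (4 of 5) had means of 8.001 and 8.173 against 7.913 to 8.125, and epithelial markers (5 of 5) of 9.63 and 9.62 against 9.48 to 9.58. The epithelial mean joins bright keratins, KRT8 (13.28 to 13.73) and KRT18 (12.56 to 13.02), with EPCAM and CDH1, which lay below the median of every array. EPCAM had all 3 TIP-1 shRNA arrays below both controls (difference -0.53, limma adjusted p = 0.707). Neuronal markers (5 of 5) had means of 7.47 and 7.61 against 7.29 to 7.51. Among them SYT1, named after its values were seen, was low in shRNA 3, where CYB5A was highest, at 7.35 against 8.47 to 8.68 in the other 4 arrays. It was not low in control 2 (8.51), where CYB5A was also high. MAP2 went the other way, at 7.16 in shRNA 3 against 6.48 to 6.72 in the other 4 arrays. SNAP25 had all 3 TIP-1 shRNA arrays (7.27 to 7.44) below both controls (7.59 and 7.69), with a limma adjusted p of 0.707. This held for 2 of the 5 neuronal markers, against 14.5% of all rows. None of these lists had a gap of 2 log2 units in any gene. By list mean, in none of these cell type lists were control 2 and shRNA 3 the 2 highest or the 2 lowest arrays. Among the pathway lists they were the 2 highest by mean for b5-like relatives and the P450 system. They were not for electron acceptors, heme enzymes or membrane insertion. Among single genes of the cell type lists, control 2 and shRNA 3 were the 2 highest for PECAM1, KRT18 and CNP, with ranges over the 5 arrays of 0.15, 0.46 and 0.14. They were the 2 lowest for the glioma and astrocyte markers S100B, SOX2, CD44 and FABP7, with ranges of 0.08, 0.21, 0.07 and 0.21. The other glioma and astrocyte markers did not have this order.

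The mean of the microglial list (5 of 5) was lowest in the 2 arrays where CYB5A was high, at 8.19 in control 2 and 8.01 in shRNA 3. It was 8.45, 8.40 and 8.28 in control 1, shRNA 1 and shRNA 2. Its range came mostly from PTPRC, which read 8.65 and 7.32 in controls 1 and 2 and 8.39, 7.75 and 6.84 in shRNAs 1, 2 and 3. Of the 5 markers only PTPRC, named after its values were seen, had control 2 and shRNA 3 as its 2 lowest arrays. AIF1, a defining marker, stayed between 5.82 and 6.01 and was highest in control 2, as was CD68 (12.66). CSF1R (7.80) and ITGAM (7.16) were lowest in control 2, but shRNA 3 was not next to it. The part of PTPRC, SYT1 and MAP2 in the result for CYB5A was not tested.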

How the data were processed

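Expression was measured on 1 Affymetrix array for each of 5 D54 cultures, 2 with control shRNA and 3 with TIP-1 shRNA. The authors deposited log2 signals, 1 per transcript cluster, made with the Affymetrix Exon Array Computational Tool per the series' design text. Its version, background correction, normalization and genome build are not stated there. The values were used as deposited, without further scaling. Compression of dim signals by background would make fold changes understate changes near the floor.

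Rows were named from a platform annotation that can be old, with symbols looked up by gene identifier in RefSeq (GRCh38.p14). Of 33297 rows, 19460 had 1 symbol, 1754 several and 12083 none, and no row with several symbols named a member. For pathway and marker lists, the row with the highest mean stood for a gene, and 57 of 60 pathway genes were matched. Promoter sequences came from RefSeq.

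Differences were fitted over all rows by the linear model and moderated test of limma 3.58.1 (R 4.3.3). Two-sided p-values were adjusted by Benjamini-Hochberg across the whole table, and 0.05 was the threshold. The fit was tested on simulated data. The precision is limited by the number of arrays. Members and lists were chosen with earlier results of these data known. Named genes were the members, TAX1BP3, the 3 genes of each pathway list with the smallest unadjusted p, a few set enzymes (SCD, SC5D, MSMO1, CYP51A1, POR, MTARC1, MTARC2, FADS1 and FADS2), the 5 rows nearest to CYB5A and the 5 nearest to its mirror image, and 4 measured neighbours on each side. ALAS1 was named outside this rule. HMOX1 and single genes of the lists for other cell types, such as SYT1, MAP2, SNAP25, EPCAM and PTPRC, were named after their values were seen. Alternatives were quantile normalization, median centring, rows with a mean of at least 6, a trended robust fit, array weights, the replicate number as a block, rows with 1 symbol only, leaving out each array, and the mean over the rows of a gene.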

Additional observations from a re-analysis of the deposited data

How the results depend on the processing

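No partner row passed the threshold under any of the 12 alternatives run for each. Of 60 such values, 57 kept their direction and 3, all of CYB5R2, changed sign at values near 0: 0.0032 with the replicate block, 0.0006 without control 2, and a range of -0.22 to 0.0032 over the fits that drop 1 array. When 1 array was left out, the difference was 0.04 to 0.16 for CYB5B, 0.08 to 0.16 for CYB5R1, -1.04 to -0.49 for CYB5R3 and 0.25 to 0.35 for CYB5R4, and -2.17 to 1.48 for CYB5A. CYB5R3 came to -0.97 with array weights (limma adjusted p = 0.451) and -1.04 with the replicate block (0.0984). The block gives shRNA 3 no part in the estimate, as no control shares its number. Deviations from the group means correlated across rows at 0.049 between the arrays numbered 1 and at -0.053 between those numbered 2, so replicate numbers did not count as pairing.

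Over all rows limma called 1 as deposited, 2 with array weights, 15 with the replicate block and 0 where rows of several symbols, TAX1BP3 included, were dropped. Leaving out 1 array gave 0 to 6 calls, with 0 without control 1, control 2 or shRNA 2. The median difference of b5-like relatives, 0.03, was -0.0574 with array weights, -0.0602 with the replicate block and from -0.0602 to 0.0606 over the fits that drop 1 array. That of heme enzymes, 0.05, was 0.11 with median centring, which raises all differences, and 0.0046 with the replicate block. That of the P450 system, 0.05, was -0.03 with array weights and -0.04 with the replicate block. Apart from those named, causes were not tested. With no detection call, signal over background could not be set for the low CYB5A arrays or for CYB5R2.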
